A study of Mus musculus with 96 samples.

Results

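Cytochromes P450 are haem enzymes of the endoplasmic reticulum that place an oxygen atom into fatty acids, steroids, bile acids, vitamins, drugs and poisons. Family 1 answers to aromatic pollutants, families 2 and 3 handle most drugs and many steroids, and family 4 hydroxylates the tail end of fatty acids and eicosanoids. Hepatocytes make most of them, and in mice many differ between the sexes through the daily pattern of growth hormone release. The 76 genes described here, of 56748 in the count table, were the protein-coding genes named Cyp with a family number from 1 to 4, a letter and a gene number. Family 2 supplied 49 of them, family 4 supplied 17, family 3 supplied 7 and family 1 supplied 3.

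Liver, skeletal muscle and cortex were sequenced from mice with food always at hand, called ad libitum (AL), and from mice on intermittent fasting (IF), without food for 16 h of every day over 4 months. Male mice carried the numbers 1 to 16 and female mice 25 to 40, with 8 mice per diet and sex in each tissue, and AL and IF mice differed by diet alone as far as the labels say. The study's methods describe only male C57BL/6 mice, killed in the morning, when IF mice were ending their fast, and perfused. By those methods IF mice could eat only by day, with the lights on, and AL mice at any hour. Feeding time thus differed together with diet. For the female mice, strain, age, feeding hours and hour of death were not given. Each library held polyadenylated RNA of 1 tissue of 1 mouse, and 95 libraries were used. In all 95 of them the counts of Xist and of Y-linked genes fitted the sex on the label. The column of cortex AL mouse 1 was left out: it held 10219 Xist counts against at most 9 in the other male cortices, which left 7 male AL cortices. Totals ran from 26097314 to 49838004 counts per library, and from 26097314 to 44763638 in liver.

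Liver held by far the most P450 mRNA. Summed over the 76 genes, levels scaled to library depth (CPM) averaged 19924 in male AL liver, 169 in male AL cortex and 65.0 in male AL muscle. In male AL liver 49 genes averaged at least 1 CPM and 26 at least 100 CPM, and 7 had no count in any library. In female AL liver 54 and 33 genes reached these levels. Only 12 genes reached 1 CPM in male AL muscle and 16 in male AL cortex, and none reached 100 CPM there. Cyp2j7 and Cyp2w1 had no count in any library of any tissue.

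Per kilobase of the gene length in the count table, which allows levels to be set against each other, Cyp2e1 led male AL liver with a mean of 1388 CPM per kb. This enzyme oxidizes ethanol, acetone and paracetamol. Cyp2d10 (723), the male steroid hydroxylase Cyp2d9 (709), Cyp3a25 (636), Cyp2d26 (608) and the drug-metabolizing Cyp3a11 (472) followed. Cyp2c37 (374), Cyp2c54 (365), the caffeine-oxidizing Cyp1a2 (306) and Cyp2c50 (279.8) completed the highest 10. The order depended on the length used. Per kilobase of the main annotated transcript, a choice made after seeing the data, Cyp2e1 still led (1422), but Cyp2d9 (1101) and Cyp3a11 (986) passed Cyp2d10 (719) and Cyp3a25 (659.6), and Cyp2c54 stood at 213. Close paralogs share sequence, and the handling of reads that match several genes was not stated, so some of these levels are uncertain. Of all 100-base windows of its transcript, 36.3% in Cyp2c69, 28% in Cyp2c40, 23.6% in Cyp2c67, 21.0% in Cyp4a32, 19.2% in Cyp2c68, 16.3% in Cyp2d10 and 15.6% in Cyp4a10 recurred in another Cyp gene or pseudogene. The share was 14.2% in Cyp2a5 and 11.2% in Cyp2a4, and 0 in Cyp2e1, Cyp2u1 and Cyp4a14.

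In male liver, P450 genes changed in both directions under IF. Of 58 members with enough counts to test, 36 changed at an adjusted p below 0.05 (edgeR), 20 of them higher and 16 lower, and 18 members fell below the count filter. Among all 16204 genes tested, 44.6% changed, 23.5% higher and 21.1% lower. The median log2 fold change was 0.02 over the tested members and 0.06 over all genes, and the median size of change was 0.55 and 0.46. In 12 members, 7 higher and 5 lower, the 8 AL and 8 IF livers did not overlap; this held for 14.9% of all genes. Family 4 gave 8 rises and 2 falls among 13 tested genes, family 2 gave 10 and 13 among 38, family 3 gave 2 rises among 4, and family 1 gave 1 fall among 3. In whole tissue, fewer cells of a type and less RNA per cell cannot be told apart.

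Markers of several cell types moved in the same livers. The sum of 7 hepatocyte markers averaged 66079 CPM in AL and 53019.5 CPM in IF, led by Alb, and 1 of 7 fell. The sum of 5 erythrocyte markers, led by Hba-a1, averaged 616 CPM in AL and 2493 CPM in IF, where it spanned 676 to 6051 CPM, and 3 of 5 rose. Endothelial markers, led by Stab2, averaged 139.6 and 219 CPM in sum, with 3 of 5 higher. Kupffer and leukocyte markers, led by Clec4f, averaged 175 and 232 CPM with 1 of 6 higher, and stellate and fibroblast markers, led by Dcn, 108 and 139 CPM with 1 of 5 higher. Bile duct markers, led by Sox9, averaged 16.9 and 22.1 CPM, with 3 of 4 higher and 1 lower. None of these markers was at 0 in male liver. The sum of 5 adipocyte markers averaged 33.7 CPM in AL and 14.7 CPM in IF, with 1 of 2 tested lower. The part of all these markers in the P450 results was not tested.

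**Figure D1:**
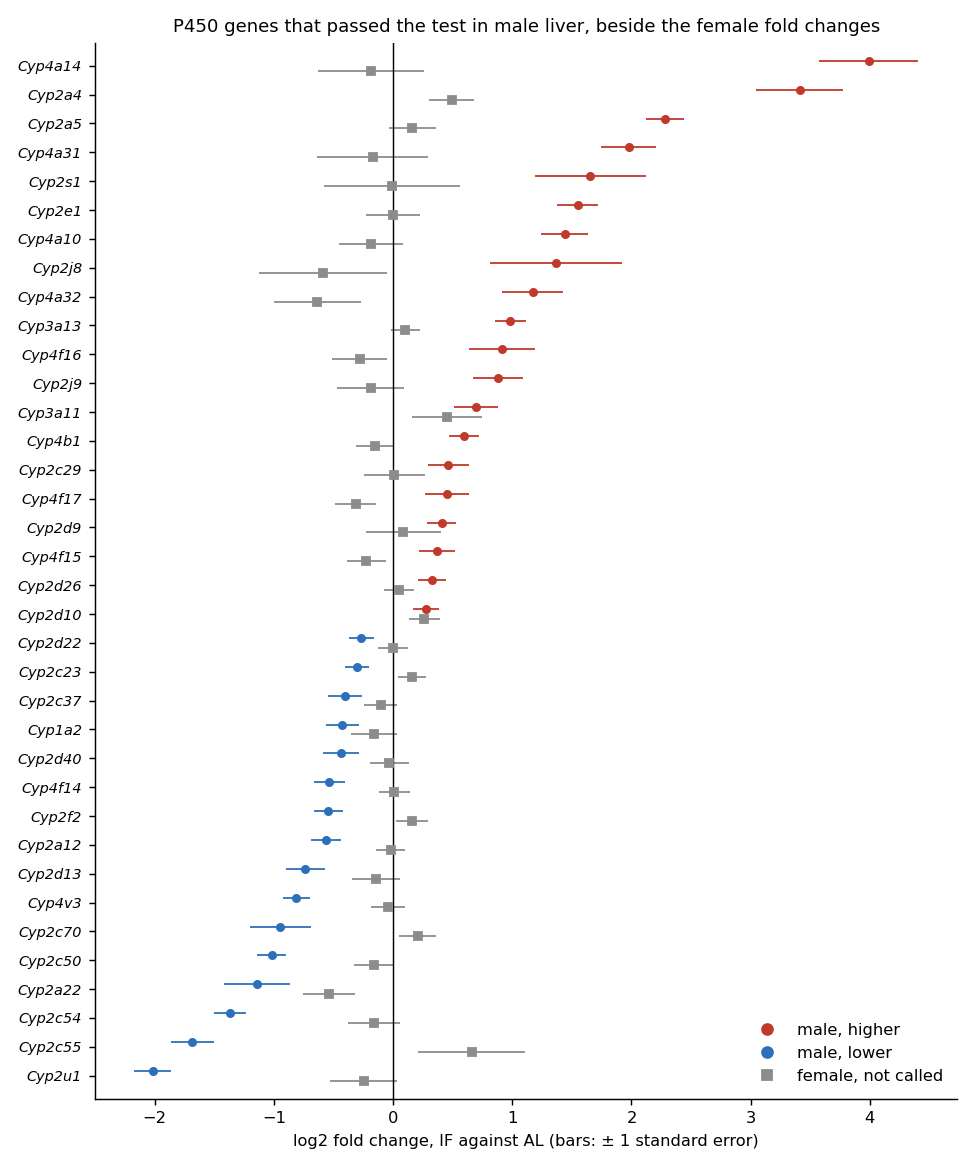
Log2 fold change of IF against AL in liver (horizontal axis, bars of 1 standard error) for the 36 members that changed in male liver, as coloured circles for males and grey squares for females. Male values spanned -2.02 for Cyp2u1 to 3.99 for Cyp4a14, while the grey squares lay nearer 0.

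Cyp4a10, Cyp4a14, Cyp4a31 and Cyp4a32, fatty acid hydroxylases listed as targets of the fatty acid receptor PPAR-alpha, were the 4 Cyp4a genes of the 76 that could be tested. All 4 rose in male IF liver, against 23.5% of all genes. Cyp4a14 ranged from 27.7 to 165 CPM with a median of 64.4 in AL and from 824 to 1711 CPM with a median of 1217 in IF. The groups did not overlap, and the rise was the steepest among the members (log2 fold change ± its standard error 3.99 ± 0.42, adjusted p = 1.43e-06). Cyp4a10 ranged from 120 to 390.2 CPM with a median of 261 in AL and from 484 to 855 CPM with a median of 689 in IF, also without overlap (log2 fold change 1.44 ± 0.20, adjusted p = 3.99e-06). Cyp4a31 averaged 3.63 and 13.8 CPM without overlap (1.98 ± 0.23, adjusted p = 2.42e-07). Cyp4a32 averaged 28.1 and 61.3 CPM, with overlap (1.17 ± 0.26, adjusted p = 0.00134). Cyp4a29 was below the filter. Summed, the 4 tested genes averaged 378 CPM in AL and 2047 CPM in IF.

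The same chromosome 4 cluster also holds Cyp4b1, which rose by a smaller log2 0.60 ± 0.13 (adjusted p = 5.65e-04). All 5 tested members of the cluster were thus higher. The name pattern leaves Cyp4a12a and Cyp4a12b out of this count. Of these, Cyp4a12a fell (-0.88) and Cyp4a12b was not called. With a gap of 1000 kb setting clusters apart, the 76 genes formed 17 of them, single genes included. Beside the cluster counts, 23.5% of all genes tested in male liver rose and 21.1% fell. The Cyp2j cluster on chromosome 4 gave 2 rises and no fall among 4 tested genes, and the Cyp3a cluster on chromosome 5 gave 1 rise among 3. The other large clusters were mixed. The Cyp2c cluster on chromosome 19 gave 1 rise and 5 falls among 12 tested genes, and the chromosome 7 cluster of Cyp2a, Cyp2b and neighbours gave 3 of each among 10. On chromosome 15 the Cyp2d cluster gave 3 of each among 8, and on chromosome 17 the Cyp4f cluster gave 3 rises and 1 fall among 6.

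**Figure D2:**
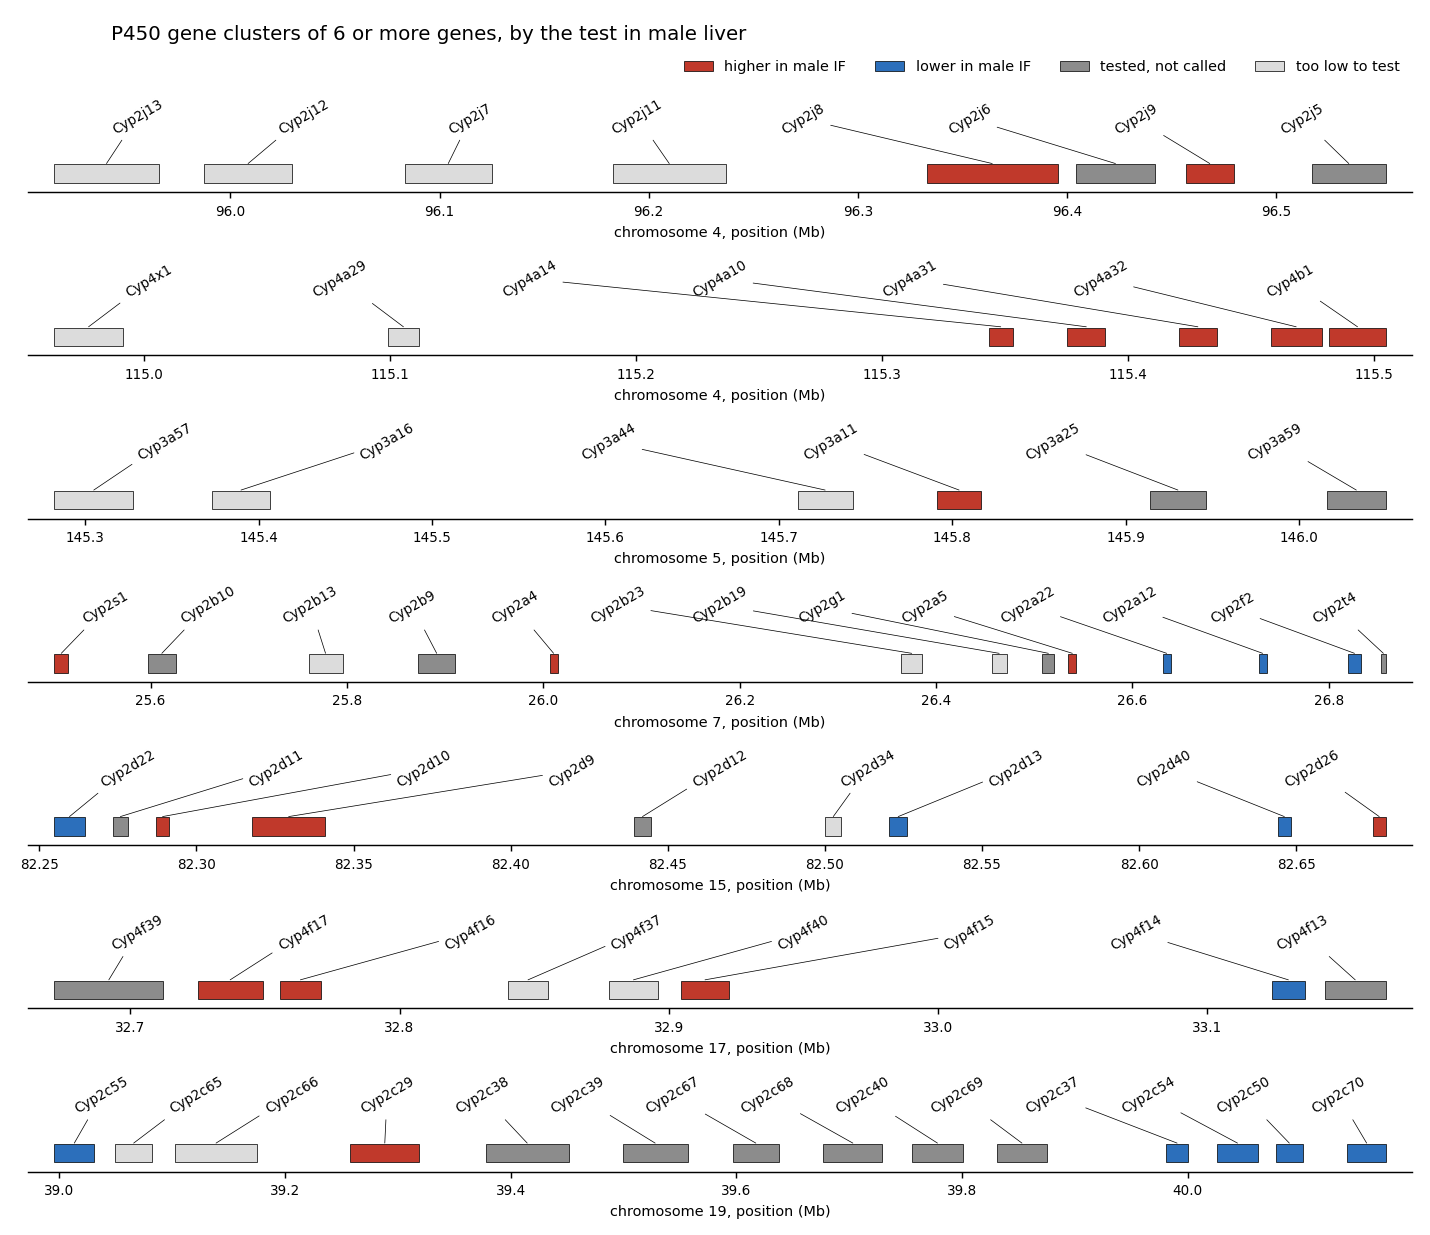
Genes of the 7 clusters with at least 6 members, in genomic position along each chromosome (horizontal axis), coloured by the male liver test as higher (red), lower (blue), tested without a call (grey) or too low to test (light). All 5 tested members of the Cyp4a cluster were red, and the Cyp2c cluster held 5 blue genes and 1 red gene. Cyp4a12a and Cyp4a12b, missed by the name pattern, are not drawn.

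Within Cyp2a, members parted by direction. Cyp2a5, which hydroxylates coumarin and nicotine, ranged from 291 to 742 CPM with a median of 491 in AL and from 1748 to 2766 CPM with a median of 2337 in IF. The groups did not overlap (log2 fold change 2.28 ± 0.16), and its adjusted p of 8.45e-11 was the lowest of all members. Its near copy Cyp2a4, a steroid hydroxylase known from female liver, was almost absent from male AL liver at 0.0314 to 0.662 CPM with a median of 0.257 and reached 2.39 to 4.38 CPM with a median of 2.97 in IF (3.41 ± 0.37, adjusted p = 6.20e-08). Cyp2a4 passed the count filter only through its IF livers, so the size of its rise is uncertain. Whether reads of Cyp2a5 were counted for Cyp2a4 was not tested. The other 2 genes fell: Cyp2a22 averaged 9.45 and 4.14 CPM (-1.14 ± 0.27, adjusted p = 0.00174), and Cyp2a12 496 and 327 CPM (-0.56 ± 0.12, adjusted p = 6.74e-04).

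Cyp2e1, already the most abundant member per kilobase, ranged from 1596 to 4269 CPM with a median of 3050.3 in male AL liver and from 5659 to 10431 CPM with a median of 8668 in male IF liver. The groups did not overlap (log2 fold change 1.55 ± 0.17, adjusted p = 1.28e-07). It made up 14.8% of the summed P450 level in AL and 29.1% in IF. The sum itself averaged 19924 CPM in AL and 29131 CPM in IF, and without Cyp2e1 16929 and 20599 CPM. As a share of all counts, the members held 1.84% in male AL liver and 2.96% in male IF liver. For protein, the study reported lower CYP2E1 in male IF liver, the opposite direction to this mRNA.

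The pregnane X receptor drives Cyp3a11, the main drug-metabolizing Cyp3a of mouse liver. It averaged 2404 CPM in male AL and 3788 CPM in male IF liver, with overlapping groups (0.69 ± 0.18, adjusted p = 0.00335). Cyp3a13 did not overlap, at 42.5 to 66.9 and 79.5 to 135 CPM (0.98 ± 0.13, adjusted p = 1.47e-06). The study reported lower CYP3A13 protein in male IF liver. Cyp3a25 averaged 1325 and 1288 CPM (log2 0.00 ± 0.17, adjusted p = 0.991). Of 8 textbook targets of the pregnane X and constitutive androstane receptors, 3 rose and 4 fell, which gave no shared direction. Among all genes tested in male liver, 23.5% rose and 21.1% fell. The targets that rose were Cyp3a11, Cyp3a13 and Cyp2c29 (0.46). Cyp2b10, the classic target of the second receptor, averaged 2.46 and 2.82 CPM (log2 0.24 ± 0.36, adjusted p = 0.613).

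Cyp2u1, a hydroxylase of long-chain fatty acids that lies alone on chromosome 3, showed the steepest fall. It ranged from 72.3 to 126 CPM with a median of 91.9 in male AL liver and from 13.6 to 35.7 CPM with a median of 22.2 in male IF liver, without overlap (log2 fold change -2.02 ± 0.16, adjusted p = 5.08e-10). Most other large falls lay in Cyp2c, whose enzymes oxidize arachidonic acid and drugs. Cyp2c54 ranged from 483 to 983 CPM with a median of 632 in AL and from 188 to 306 CPM with a median of 249 in IF (-1.36 ± 0.14, adjusted p = 1.84e-08). Cyp2c50 ranged from 632 to 1066 CPM with a median of 837 and from 290.2 to 443 CPM with a median of 409.8 (-1.02 ± 0.12, adjusted p = 3.86e-07). Neither overlapped, nor did the scarcer Cyp2c55 at 4.68 to 12.7 CPM in AL and 2.2 to 3.37 CPM in IF (-1.68 ± 0.18, adjusted p = 5.86e-08). Cyp2c70, which makes the muricholic bile acids of mice, averaged 172 and 87.2 CPM (-0.94 ± 0.26, adjusted p = 0.00622). Smaller falls were those of Cyp2c37 (-0.40) and Cyp2c23 (-0.30).

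**Figure D3:**
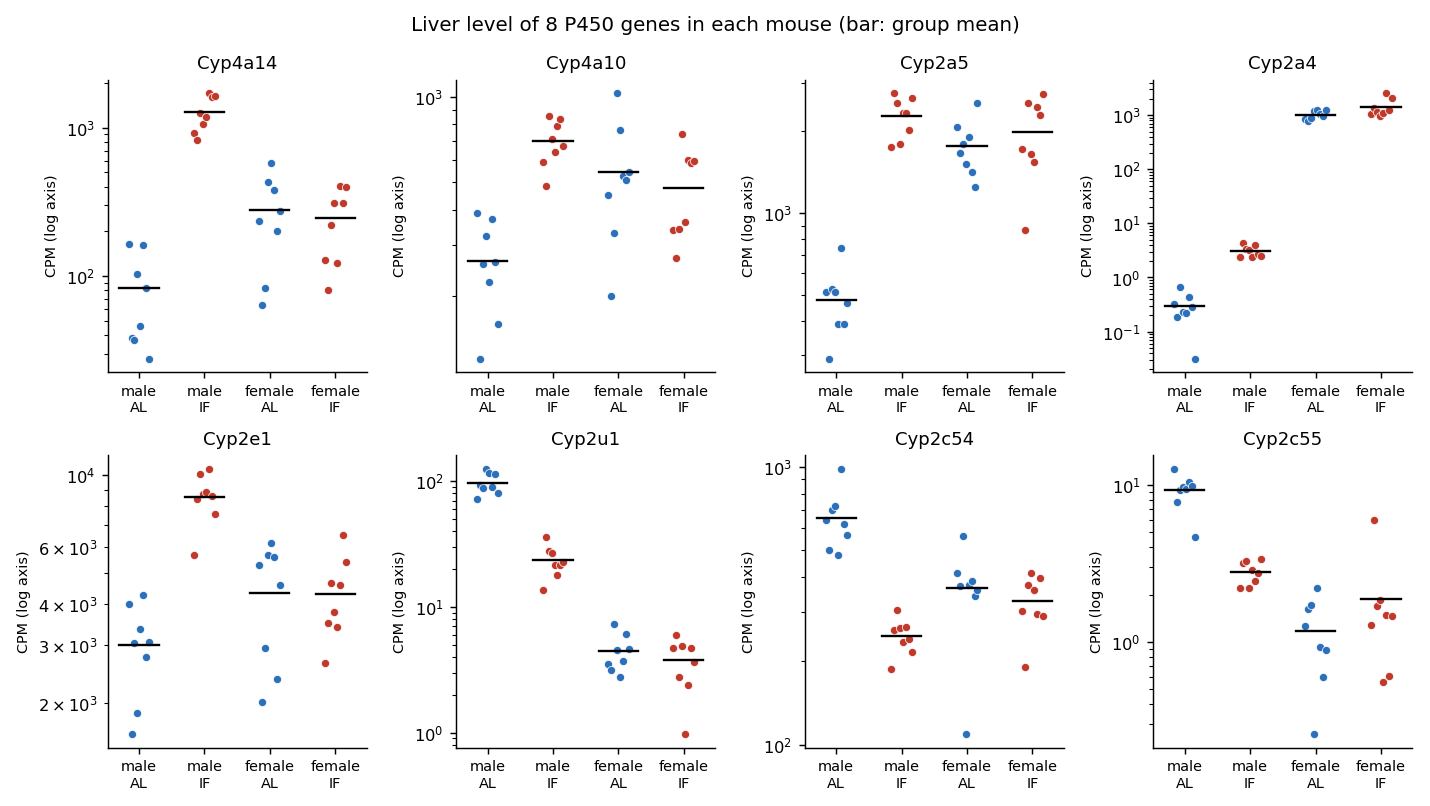
Liver CPM of 8 members on a logarithmic axis, 1 point per mouse, in male AL, male IF, female AL and female IF livers (blue for AL, red for IF), with a bar at each group mean. Male means moved from 82.7 to 1276 CPM for Cyp4a14 and from 97.5 to 23.4 CPM for Cyp2u1, against 281 to 247 and 4.46 to 3.75 CPM in females.

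Changes below 2-fold made up most of the remaining calls. In Cyp2d, Cyp2d9 (0.41), Cyp2d26 (0.33) and Cyp2d10 (0.28) rose and Cyp2d13 (-0.74), Cyp2d40 (-0.44) and Cyp2d22 (-0.27) fell. In Cyp4f, whose enzymes inactivate leukotrienes, Cyp4f16 (0.92), Cyp4f17 (0.45) and Cyp4f15 (0.37) rose and Cyp4f14 fell (-0.53). Cyp4v3, an ortholog of the human retinal dystrophy gene, fell without overlap (-0.81 ± 0.11, adjusted p = 2.23e-06). Among arachidonate epoxygenases, Cyp2j9 (0.88) and Cyp2j8 rose; Cyp2j8 averaged only 0.554 and 1.40 CPM (1.37 ± 0.55, adjusted p = 0.0469), and its call ended with the size factors of DESeq2 in place of TMM. Cyp2s1 averaged 0.681 and 2.09 CPM (1.66 ± 0.46, adjusted p = 0.00545). Cyp1a2 fell (-0.42, adjusted p = 0.0145), while its neighbour Cyp1a1, also a target of the aryl hydrocarbon receptor, averaged 0.945 and 0.766 CPM (log2 -0.25 ± 0.48, adjusted p = 0.695). Cyp2f2 fell as well (-0.54). The vitamin D hydroxylase Cyp2r1 gave -0.09 ± 0.17 (adjusted p = 0.688).

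The name pattern left 6 protein-coding genes of these families out of the 76, among them the male liver hydroxylases Cyp4a12a and Cyp4a12b. Against the direction of its Cyp4a relatives, Cyp4a12a fell in male IF liver, from a mean of 418 to 221 CPM (log2 fold change -0.88 ± 0.17, adjusted p = 1.56e-04). Cyp4a12b averaged 113 and 85.4 CPM (-0.36 ± 0.17, adjusted p = 0.0852).

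In female liver no member of 61 tested passed an adjusted p of 0.05 with edgeR, nor did any of 15938 genes (0%). An unadjusted p below 0.05 was reached by 2 members and 919 genes, and DESeq2 called 0 members and 4 genes. The lowest adjusted p of a member was 0.797, and log2 fold changes of the members ran from -0.76 to 0.66. The highest was that of Cyp2c55, where IF mouse 34 stood apart at 5.99 CPM. Cyp4a14 ranged from 63.5 to 580 CPM with a median of 253 in female AL liver and from 80.7 to 404 CPM with a median of 265 in female IF liver (log2 -0.18 ± 0.44, adjusted p = 0.965). Cyp2a5 averaged 1770.3 and 1980.4 CPM (log2 0.16 ± 0.20) and Cyp2e1 4327 and 4311 CPM (adjusted p = 1). The summed level averaged 21027 CPM in AL and 21436 CPM in IF. A missed threshold does not show that levels were equal.

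The difference between the sexes in diet response was tested as an interaction over all 4 liver groups. It was significant in 24 of 62 members, with the female response above the male in 11 and below it in 13, and in 23.7% of 17658 genes, 12.8% above and 10.9% below. Among members that rose in males, the female minus the male log2 response was -4.14 ± 0.62 (adjusted p = 1.22e-05) for Cyp4a14, -2.89 ± 0.34 (adjusted p = 1.04e-07) for Cyp2a4 and -2.09 ± 0.26 (adjusted p = 2.43e-07) for Cyp2a5. Values for Cyp4a10, Cyp2e1 and Cyp3a13 were -1.58 ± 0.36 (adjusted p = 0.00128), -1.51 ± 0.30 (adjusted p = 2.69e-04) and -0.84 ± 0.18 (adjusted p = 6.24e-04). Members that fell in males gave the opposite sign: 2.37 ± 0.48 (adjusted p = 3.61e-04) for Cyp2c55, 1.81 ± 0.33 (adjusted p = 1.09e-04) for Cyp2u1, 1.24 ± 0.27 (adjusted p = 6.36e-04) for Cyp2c54 and 0.80 ± 0.18 (adjusted p = 0.00105) for Cyp4v3. These interactions share all of their livers with the diet comparisons. Cyp3a11, higher in male IF liver, gave an interaction of -0.21 ± 0.37 (adjusted p = 0.733), so a sex difference in its response was not shown. In the same test 2 of 5 erythrocyte, 3 of 5 endothelial and 3 of 4 bile duct markers had a significant interaction, and their part in the P450 results was not tested. Sex cannot be told apart from the blocks of mouse numbers.

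Many members already differed between the sexes under AL. Between female and male AL liver, 40 of 62 members differed, 21 higher and 19 lower in females, against 20% of 17658 genes, 10.4% higher and 9.59% lower. Sex again cannot be told apart from the blocks of mouse numbers. Cell type markers differed in the same AL livers, with 3 of 6 Kupffer and leukocyte markers higher in females. Lower in females were 1 of 5 erythrocyte, 1 of 4 bile duct and 1 of 2 tested adipocyte markers. The Kupffer and leukocyte sum averaged 313 CPM in female and 175 CPM in male AL liver. The part of these markers in the sex differences was not tested. All 8 textbook female-biased members were higher in females and all 3 male-biased members lower. Cyp2a4 averaged 1029.7 CPM in female and 0.297 CPM in male AL liver (log2 fold change 11.76 ± 0.33, adjusted p = 7.37e-26). Cyp2c69 (9.27), Cyp2b13 (8.77), Cyp2c40 (6.09), Cyp2a22 (5.58) and Cyp2b9 (5.14) were also far higher in females, with Cyp2c69 and Cyp2c40 among the genes that share the most sequence. In male AL liver Cyp3a44 and Cyp3a16 had 8 and 2 counts in all against 78234 and 18306 in females, too few in males for a stable fold change.

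On the male side, Cyp2d9 averaged 1884 CPM in male and 28.7 CPM in female AL liver (-6.02 ± 0.29, adjusted p = 6.11e-18). Cyp2u1 (-4.44), Cyp2c55 (-2.94), Cyp3a11 (-2.10), Cyp2d11 (-1.33), Cyp4f17 (-1.13), Cyp2c50 (-0.92) and Cyp2c29 (-0.84) were lower in females too. Outside the 76, Cyp4a12a averaged 418 CPM in male and 0.0923 CPM in female AL liver (-11.96 ± 0.50, adjusted p = 3.29e-18). Cyp4a12b averaged 113 and 0.0613 CPM (-11.15 ± 0.52, adjusted p = 3.95e-14). In the other direction, Cyp3a41a and Cyp3a41b had no count in male AL liver. They were at least 4278-fold and 8700-fold higher in females, taking 3 counts over the male group as a floor.

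Under IF, 39 of 62 members differed between the sexes, 18 higher and 21 lower in females, against 37.5% of all genes, 19.9% higher and 17.6% lower. The median size of the log2 difference over the members was 0.82 under AL and 0.95 under IF, and gaps both narrowed and widened. The female-to-male log2 fold change was 1.90 under AL and -0.19 under IF for Cyp2a5 (adjusted p = 4.24e-10 and 0.457). For Cyp4a14 it was 1.78 under AL and -2.36 under IF (adjusted p = 0.0035 and 9.21e-05), and for Cyp2e1 0.55 under AL and -0.97 under IF (adjusted p = 0.0666 and 4.18e-04). Cyp4b1 moved further apart, at -0.50 under AL and -1.22 under IF (adjusted p = 0.014 and 3.49e-08). Values were -4.44 under AL and -2.63 under IF for Cyp2u1, and -0.82 under AL and 0.43 under IF for Cyp2c54. Cyp2d9 kept its male bias, at -6.02 under AL and -6.31 under IF. Cyp3a44 had no count in male IF liver and was at least 18825-fold higher in females at the same floor of 3 counts. Cell type markers differed in the same IF livers: 5 of 5 erythrocyte, 4 of 5 endothelial, 3 of 4 bile duct and 2 of 2 tested adipocyte markers were lower in females. Summed erythrocyte markers averaged 532 CPM in female and 2493 CPM in male IF liver, led by Hba-a1, and endothelial markers, led by Stab2, 104 and 219 CPM. Their part in the sex differences was not tested. In these comparisons too, sex cannot be told apart from the mouse number blocks.

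P450 enzymes depend on an electron supply and on haem, and genes of both changed in male liver. Por, the reductase that feeds all microsomal P450s, ranged from 83.3 to 184 CPM with a median of 131 in AL and from 839 to 1158 CPM with a median of 1013 in IF (log2 fold change 2.94 ± 0.16, adjusted p = 1.19e-12), and its interaction was -2.78 ± 0.21 (adjusted p = 5.73e-12). Alas1, the first step of haem synthesis, averaged 218 and 920.4 CPM (2.12 ± 0.42, adjusted p = 7.54e-04). Against 44.6% of all genes that changed in male liver, of 10 genes listed for electron transfer and haem 5 rose and 4 fell; Hmox1 (1.40), Urod (0.84) and Fech (0.72) rose, and Cyb5a (-0.90), Cyb5r3 (-0.55), Pgrmc1 (-0.42) and Cyb5b (-0.41) fell. Among 13 tested regulators of P450 genes, 7 rose: Tef (1.69), Dbp (1.51), Ppara (1.24), Nr1i3 (1.08), Nr1i2 (0.99), Rxra (0.98) and Hlf (0.33). Nr1d1, a clock repressor, fell (-1.96). Feeding hours differed along with diet, and their part in these changes was not tested. Of 8 genes of the growth hormone axis, Cux2 (1.09) rose and Stat5a (-0.65) and Ghr (-0.49) fell, a share near that of all genes. None of these lists had a call in female liver. Whether any of these genes acted on the P450s was not tested.

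Most P450 enzymes are made near the central vein of the lobule, so zone markers outside the family were read beside them. Of 6 pericentral genes 2 rose and 2 fell in male IF liver, and of 6 periportal genes 2 rose and 3 fell. Among all genes 23.5% rose and 21.1% fell. In AL and IF the sums averaged 2828 and 2759 CPM for the pericentral genes, led by Rgn, and 1521 and 2402 CPM for the periportal genes, led by Pck1. None of these zone markers was at 0, and their part in the P450 results was not tested.

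In muscle, the members with the highest levels per kilobase of table length in male AL mice were Cyp4f39 (3.24 CPM per kb), Cyp4b1 (2.84), Cyp2d22 (2.74), Cyp2e1 (2.70) and Cyp2u1 (2.22). By transcript length Cyp2d22 (3.87) and Cyp4f13 (3.73) came first. Under IF 7 of 17 tested members rose in male muscle and 0 fell, against 23% of 15025 genes, 11.5% higher and 11.6% lower. Cyp2e1 ranged from 1.18 to 12 CPM with a median of 4.85 in AL and from 35.3 to 198 CPM with a median of 85.0 in IF. The groups did not overlap (log2 fold change 4.02 ± 0.50, adjusted p = 7.05e-05). Its share of the summed P450 level was 8.66% in AL and 51.3% in IF. Cyp2f2 rose less (1.80 ± 0.33, adjusted p = 6.43e-04). Cyp4v3 averaged 1.23 and 3.47 CPM (adjusted p = 7.91e-04) and Cyp4b1 6.40 and 12.7 CPM (adjusted p = 4.57e-04), both higher in IF. Cyp4f13 (0.60), Cyp2d22 (0.47) and Cyp1b1 (0.93) rose too. The call of Cyp1b1 ended without IF mice 9, 10 and 12, a choice made after seeing the data. These mice had 1.12, 1.06 and 2.19 CPM. The other IF muscles spanned 0.532 to 2.18 CPM and the AL muscles 0.218 to 1.45 CPM. With fewer libraries, the lost call does not show a smaller change.

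Fat cell mRNA moved in the same muscles. The sum of 5 adipocyte markers, led by Fabp4, averaged 360.3 CPM in male AL muscle, where it spanned 164 to 728 CPM. It averaged 1560.2 CPM in IF, from 397 to 3326 CPM. Of the 5 markers, 4 rose and none was at 0. Their part in the Cyp2e1 result was not tested. Of 6 skeletal muscle markers, led by Acta1, 3 fell, with sums of 141144 CPM in AL and 128770 CPM in IF. Of 4 tested stellate and fibroblast markers 2 fell, and of 4 tested endothelial markers 1 rose and 1 fell. The part of these markers in the muscle results was not tested.

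**Figure D4:**
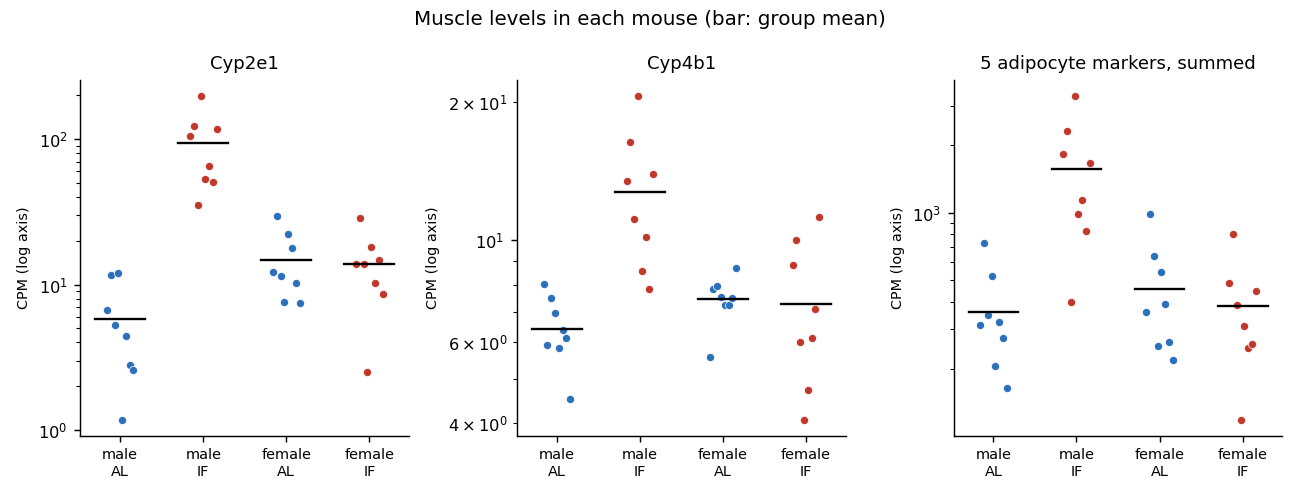
Muscle CPM of Cyp2e1, Cyp4b1 and the sum of 5 adipocyte markers on a logarithmic axis, 1 point per mouse in 4 groups, with a bar at each mean. Male means were 5.82 CPM in AL and 93.6 CPM in IF for Cyp2e1, and 360.3 and 1560.2 CPM for the marker sum.

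In female muscle no member of 17 tested was called by edgeR, against 0.00653% of 15308 genes. An unadjusted p below 0.05 was reached by 4 members and 1644 genes, and DESeq2 called 0 members and 82 genes. Cyp2e1 averaged 14.8 CPM in AL and 13.8 CPM in IF (log2 -0.11 ± 0.41, adjusted p = 0.946), and the adipocyte sum averaged 457 and 383 CPM. A sex difference in the muscle response was not tested.

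In cortex, the members with the most mRNA per kilobase of table length in male AL mice were Cyp4f15 (9.37 CPM per kb), Cyp2d22 (8.73), Cyp2j9 (5.97), Cyp2j6 (4.85) and Cyp4f14 (3.20). By transcript length Cyp2d22 (12.3) and Cyp2j9 (9.21) came first, and Cyp4f14 stood at 1.36. In male cortex 3 of 19 tested members changed, 2 higher and 1 lower, against 7.21% of 18462 genes, 3.79% higher and 3.43% lower. Cyp2d22, close to the human debrisoquine hydroxylase, ranged from 30.2 to 37.5 CPM with a median of 33.2 in AL and from 38.2 to 44.3 CPM with a median of 41.7 in IF without overlap (log2 fold change 0.28 ± 0.06, adjusted p = 0.0107). Cyp4f13 rose (0.32 ± 0.09, adjusted p = 0.0383), and the brain-expressed Cyp4x1 fell (-0.36 ± 0.10, adjusted p = 0.027). With a replicate block 1 of these 3 calls remained, and 0 remained without AL mice 2 and 4 and IF mice 11 and 14. Those 4 cortices, with the most choroid plexus mRNA, were picked after seeing the data. Without them 0 of the 3 changes turned direction. The remaining AL and IF cortices spanned 31.8 to 37.1 and 38.2 to 43.6 CPM for Cyp2d22. For Cyp4f13 they spanned 12.7 to 15.2 and 13.1 to 20.7 CPM, and for Cyp4x1 11.1 to 13.2 and 7.96 to 10.9 CPM. With fewer libraries, the lost calls do not show smaller changes. The sum of 5 choroid plexus and meninges markers, led by Ttr, spanned 14.7 to 3224 CPM in AL and 14.2 to 3467 CPM in IF; 0 of 5 were called and none was at 0. Of 6 markers of cortex cells, led by Mbp, 1 rose. In female cortex edgeR called 0 of 19 members, against 0.0109% of 18403 genes; 1 member and 2069 genes had an unadjusted p below 0.05, and DESeq2 called 0 members and 61 genes.

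The sequence just upstream of the transcript starts was read from the GRCm39 mouse genome with the GENCODE vM39 annotation, 250 bases per gene on the strand of the gene. The receptor element DR1, 2 copies of AGGTCA with 1 base between them and at most 2 mismatches on either strand, stood in 11 of 76 member promoters (14.5%) and in 2.91% of 21757 promoters. No Cyp4a gene was among these 11. Several of the 11 are paralogs of the same cluster, such as Cyp3a25, Cyp3a57 and Cyp3a59, so they are not independent. The half-site AGGTCA was in 17 members (22.4%) and 13.1% of all promoters. The aryl hydrocarbon receptor core GCGTG was in 13 members (17.1%) against 31.2%, the STAT5 element TTCNNNGAA in 4 (5.26%) against 7.70%, and the E-box CACGTG in 1 (1.32%) against 6.26%. The D-box TTATGTAA, bound by Dbp, Tef and Hlf, was in 0 members against 0.832%. Whether any element was bound was not tested. Cyp2e1, on the plus strand at chr7:140343402-140343651, held 1 DR1, and capitals mark it in the sequence shown because this gene led the liver.
Cyp2e1: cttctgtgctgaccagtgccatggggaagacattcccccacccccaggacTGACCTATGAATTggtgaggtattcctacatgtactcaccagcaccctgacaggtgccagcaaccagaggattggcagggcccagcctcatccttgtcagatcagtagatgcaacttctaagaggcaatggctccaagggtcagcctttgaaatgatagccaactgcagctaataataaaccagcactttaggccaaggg

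A pair of close paralogs with unequal levels also shared promoter sequence. Cyp2a4 (chr7:26006344-26006593, plus strand) and Cyp2a5 (chr7:26534480-26534729, plus strand) share a run of 111 identical bases, in capitals below, although Cyp2a5 averaged 479.7 CPM and Cyp2a4 0.297 CPM in male AL liver.
Cyp2a4: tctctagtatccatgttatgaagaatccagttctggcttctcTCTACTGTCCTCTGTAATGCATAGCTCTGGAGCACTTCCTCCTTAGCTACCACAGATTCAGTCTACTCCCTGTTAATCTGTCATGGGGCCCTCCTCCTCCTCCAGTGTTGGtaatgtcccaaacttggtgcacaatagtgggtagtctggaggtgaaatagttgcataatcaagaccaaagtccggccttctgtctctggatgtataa
Cyp2a5: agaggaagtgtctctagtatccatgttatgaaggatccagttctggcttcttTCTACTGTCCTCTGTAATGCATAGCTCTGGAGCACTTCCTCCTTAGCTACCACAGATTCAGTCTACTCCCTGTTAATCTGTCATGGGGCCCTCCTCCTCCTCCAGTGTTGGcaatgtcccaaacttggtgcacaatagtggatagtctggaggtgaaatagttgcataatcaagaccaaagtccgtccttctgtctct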

How the data were processed

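The values were raw counts per gene, deposited by the authors as 1 table for the whole series with gene length and biotype. Per the labels and the study's methods, reads were aligned with HISAT2 to the mm39 build and counted per gene; the strand setting and the handling of reads that match several genes were not stated. CPM were computed from these counts with TMM-scaled library totals, and levels per kilobase by dividing by the gene length in the table. Library totals ran from 26097314 to 49838004 counts. Tests used edgeR 4.0.16 in R 4.3.3 (quasi-likelihood, TMM, robust), with genes filtered by filterByExpr and Benjamini-Hochberg adjustment over all genes tested, separately for each tissue and sex; the sex comparisons and the interaction came from 1 fit of the 4 liver groups. DESeq2 1.42.0, its size factors, no filter, a replicate block, at least a 2-fold change and left-out mice were alternatives. Figures were drawn with matplotlib 3.10.9. Some promoter sequence is not reported here.

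Members were named for a change of at least 2-fold in liver, a high level per kilobase, a low interaction p, a large sex difference in AL liver, a call in muscle or cortex, or a place in a gene list. Others named with a value were chosen after values were seen. The members and the lists were chosen with earlier results of these data known.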

Additional observations from a re-analysis of the deposited data

Results flagged for a closer look

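The liver of female IF mouse 34 stood apart for Cyp2c55, at 5.99 CPM with the next liver of its group at 1.85 CPM. It was the only such library in 92 groups examined, and chance alone marks about 1 group in 20.

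The difference between the sexes in liver diet response drew attention in 10 members, each with a significant interaction. As log2, female response minus male response, it was -4.14 for Cyp4a14, -2.89 for Cyp2a4, -2.09 for Cyp2a5, -1.58 for Cyp4a10, -1.51 for Cyp2e1 and -0.84 for Cyp3a13. It was 2.37 for Cyp2c55, 1.81 for Cyp2u1, 1.24 for Cyp2c54 and 0.80 for Cyp4v3. Mouse 34 is one of the livers behind the Cyp2c55 value.

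In a column that no comparison used, that of cortex AL mouse 1, Xist reached 10219 counts, while the other male cortices had at most 9 and the female cortices 6510 to 13547. The label calls this mouse male, and the Y-linked genes Ddx3y, Uty, Kdm5d and Eif2s3y had 0 counts in it.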

How the results depend on the processing

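Of 300 values of named members recomputed under the alternatives, 290 kept their direction and their side of the threshold, 10 fell below the threshold and 0 turned direction. Asking for at least a 2-fold change left 14 members in male liver, 4 in male muscle, 0 in male cortex, 15 in the interaction, and 23 and 29 in the sex comparisons under AL and IF, by construction of that limit. In male cortex a replicate block left 1 of 3 calls. Leaving out AL mice 2 and 4 and IF mice 11 and 14, chosen after seeing the data, left 0. With these fewer libraries 0 of the 3 changes turned direction, so the lost calls do not show smaller changes. The cause was not tested. Elsewhere counts of called members stayed within 1.5 times: 32 to 39 in male liver, 6 to 8 in male muscle, 23 to 26 in the interaction, 36 to 42 between the sexes under AL and 36 to 40 under IF. The counts of 0 in female tissues stayed at 0. The replicate numbers in the sample titles, which the block used, were not treated as pairs in the main tests. In no tissue did every pair of equal replicate number correlate above 0.1. In female muscle 4 of 8 pairs did, the highest at 0.46. Such a check cannot exclude a weak pairing. The Cyp2j8 call in male liver ended with DESeq2 size factors, without AL mouse 2 and IF mouse 10, and without IF mice 9 and 10, the last chosen after seeing the data. The Cyp4x1 call in male cortex also ended without AL mouse 2 and IF mouse 10.

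The labels do not say whether the mice of a sex formed 1 cohort, sex followed the mouse numbers, and whole tissue mixes cell types. Counts of near-identical paralogs such as Cyp2c67, Cyp2c69 and Cyp4a32 depend on a read assignment that was not stated. Protein and enzyme activity were not analysed here. The study reported CYP2E1 and CYP3A13 protein as lower in male IF liver, where their mRNA was higher, so mRNA levels here do not stand for enzyme. At these depths 18 of 76 members were too low to test in male liver, 59 in muscle and 57 in cortex.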
